A study of Homo sapiens with 12 samples.

Results

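The comparison set the libraries labelled with replicate number 3 against those labelled with replicate number 1 in SK-N-DZ, an established MYCN-amplified neuroblastoma cell line. The rule took 8 of the 12 RNA-sequencing libraries of the study, 4 with number 3 and 4 with number 1, and paired them within treatment. The 4 libraries numbered 2 were read beside them. All 12 libraries came from cells carrying a doxycycline-inducible short hairpin RNA against ARID1A, a DNA-binding subunit of the SWI/SNF chromatin remodeling complex. The 4 treatments, with 3 libraries each, were untreated control (C), doxycycline for 4 days (D), interferon gamma for 24 hours (I, IFNγ) and both (DI). The libraries without doxycycline carry the genotype label WT although the hairpin is present in them too. According to the study's methods the shRNA lines were clonal and kept under puromycin selection before treatment. The sources used here do not say which clone was sequenced. The labels give the replicate number without saying whether it stands for a culture, a clone, a day or a batch, so the p-values measure only the spread between these samples. Libraries are named here by treatment and number, so that C1 is control number 1.

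Neuroblastoma arises from the sympathoadrenal branch of the neural crest, and its cell lines keep parts of that program: transcription factors such as HAND2, enzymes that make catecholamines, and dense-core granules that store peptides such as neuropeptide Y. Neuroblastoma cells can also carry mesenchymal traits, with vimentin, collagens and other matrix proteins. Cell lines gain and lose chromosome segments in culture, and cultures also differ in density, nutrients and oxygen. Desmosomes, which come up below, are adhesion plaques in which the cadherins of the desmoglein (DSG) and desmocollin (DSC) families bind neighboring cells together.

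The libraries held 16469832 to 21790869 counts, at which 3 counts, taken as the detection floor, equal 0.135 to 0.187 CPM. CPM is a gene's count relative to the library total after TMM scaling, on a scale common to all libraries. ARID1A, the target of the hairpin, had 197, 197, 192 and 151 CPM in C1, D1, I1 and DI1, 186, 159, 203 and 133 in number 2, and 165, 158, 194 and 148 in number 3. The 3 minus 1 log2 difference of ARID1A was −0.15 (SE 0.075, adjusted p = 0.179 by edgeR), below the threshold for a call. The 14 markers of adrenergic neuroblastoma cells were all above the floor. They summed to 5796 to 5950 CPM in number 1, 5504 to 6137 in number 2 and 6370 to 6969 in number 3. Such sums do not show single markers. TH had 47.3, 1.34, 21.5 and 1.90 CPM in C1, D1, I1 and DI1, 3.13, 7.04, 2.18 and 3.08 in number 2 and 74.7, 0.695, 59.0 and 0.766 in number 3. DBH had 265, 86.0, 238 and 79.1 CPM in number 1, 442, 371, 430 and 417 in number 2 and 327, 85.6, 413 and 108 in number 3. Fibroblast markers (2 of 10 at the floor in every library) summed to 107 to 143, 138 to 210 and 88.5 to 150 CPM. Endothelial, epithelial, immune and Schwann cell precursor markers summed to at most 11 CPM in any library. No pair of libraries of one treatment was close enough to be the same library deposited again (chi-square per gene of 18.4 or more), and each was counted as a sample.

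The replicate number took a share of the variation of the same order as IFNγ. Over 15828 tested genes, it accounted for 36.9% of the sum of squares of log2 CPM on 2 degrees of freedom, against 32% for IFNγ and 11.8% for doxycycline on 1 each, and 10.4% for the combination of number and doxycycline on 2. The common biological coefficient of variation was 0.308 with the treatments alone in the model and 0.153 with the replicate number added. It was 0.076 with the combination of number and doxycycline added as well. The calls between numbers come from the model without that combination, so their spread includes differences in the doxycycline response. Between numbers 3 and 1, 3854 genes passed a Benjamini-Hochberg adjusted p of 0.05 by edgeR's quasi-likelihood test with treatment in the model, or 24.3% of those tested. Of these, 1768 were higher in number 3 (11.2% of tested genes) and 2086 were lower (13.2%). The median size of a called log2 difference was 0.52. A change of at least 2-fold was found for 953 genes and of at least 4-fold for 364. Among called genes 3798 had the same sign of difference in all 4 treatments, as had 353 of the 364 genes of at least 4-fold. Over all tested genes 7638 did so (48.3%). The calls rest on the same 4 differences, so the agreement among called genes is partly set by the call itself. The same model called 3097 genes between numbers 2 and 1 (19.6%) and 6277 between 3 and 2 (39.7%), and 6958 genes differed among the 3 numbers in any way (44.0%). These comparisons share libraries and are given side by side.

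Genes present in number 1 and at the floor in number 3 led the lower direction. PHF2P2, at the floor in number 1, led the higher one, but most higher genes had reads in both numbers. The stretches of reference sequence just upstream of the RefSeq start are shown for 4 genes. The 3 desmosomal cadherins were taken because they lie within the same stretch of chromosome 18 and were at the floor together. SST (somatostatin) was taken because it reached the highest level in number 3 among the 12 genes named as higher. They are the 120 bases before that start on GRCh38.p14, written 5′ to 3′ on the gene's strand. The gene positions given below are from GENCODE, whose bounds differ from the RefSeq starts. By those bounds the DSG2 stretch lies inside the gene, and the stretches of DSC3, DSC2 and SST overlap their genes in part. Capitals mark CpG dinucleotides in the cadherins and, in SST, the cyclic AMP response element.
DSC3, chr18:31042743-31042862, minus strand: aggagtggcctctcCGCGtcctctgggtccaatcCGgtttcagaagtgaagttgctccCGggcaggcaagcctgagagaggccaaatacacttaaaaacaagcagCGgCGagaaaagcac
DSC2, chr18:31102422-31102541, minus strand: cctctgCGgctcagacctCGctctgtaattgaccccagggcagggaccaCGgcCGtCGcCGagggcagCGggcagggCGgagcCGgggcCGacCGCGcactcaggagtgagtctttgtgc
DSG2, chr18:31498057-31498176, plus strand: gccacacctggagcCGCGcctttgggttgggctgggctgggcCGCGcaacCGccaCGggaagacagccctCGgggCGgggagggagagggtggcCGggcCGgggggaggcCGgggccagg
SST, chr3:187670395-187670514, minus strand: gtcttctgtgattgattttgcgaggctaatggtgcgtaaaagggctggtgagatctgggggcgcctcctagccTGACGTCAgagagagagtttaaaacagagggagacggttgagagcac
The RefSeq windows of 300 bases around a start (250 before, 50 after) hold a median of 14 CpG over 35116 windows, with quartiles of 4 and 28. The window of DSC3 holds 25, that of DSC2 15 and that of DSG2 36, so the cadherins lie at or above the median. The element in SST, TGACGTCA, which reads the same on both strands, begins 47 bases before the start, and its letters occur in 649 windows (1.85%). Of the 24 genes with the largest differences, 18 had a window, and 1 of these, SST, held it. The median CpG count was 24 for the 9 lower and 24 for the 9 higher genes with a window. DNA methylation and factor binding were not measured in these libraries.

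The desmosomal cadherins were expressed in number 1 and absent or nearly so from the others. DSC3 (desmocollin 3, chromosome 18, 30990008 to 31042815, minus strand, GRCh38) had 10.5, 10.5, 10.9 and 9.03 CPM in C1, D1, I1 and DI1, at most 0.109 in number 2 and 0 in every library of number 3. It was at least 62.7-fold lower in number 3, counting 3 reads per library as the floor (adjusted p = 2.15e-05 by edgeR). DSC2 (desmocollin 2) had 8.79, 2.96, 14 and 4.93 CPM in number 1 and 0 in number 3, at least 47.0-fold lower. DSG2 (desmoglein 2, 31498043 to 31549008, plus strand) had 17.2, 3.67, 14.4 and 4.31 CPM in number 1, 0 in number 2 and at most 0.0450 in number 3, at least 60.5-fold lower. Number 1 did not overlap with the others for any of the 3 genes. Between DSC2 and DSG2 lie DSC1, DSG1, DSG4 and DSG3, which reached at most 4 counts in any library and were not tested. B4GALT6, the next tested gene beyond DSG2, had a difference of −0.03 and was not called, and TRAPPC8 further on was lower by −0.28. DSG2 and DSC2 were lower with doxycycline within number 1, whereas DSC3 stayed level.

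MSN, which encodes moesin, a linker between actin and the plasma membrane, had the largest difference of all. MSN (X chromosome) stood at 48.8, 12.2, 44.8 and 13.5 CPM in C1, D1, I1 and DI1, at 0.0497 to 0.207 in number 2 and at 0 in all 4 libraries of number 3, at least 183-fold lower (adjusted p = 1.71e-05, edgeR). PCSK2, a prohormone convertase of secretory granules, had 5.59, 5.39, 14.7 and 8.57 CPM in number 1 and at most 0.0901 in number 3, at least 52.5-fold lower, and at most 0.218 in number 2. C3orf14 differed in where number 2 stood: it had 8.54, 4.53, 10.6 and 7.80 CPM in number 1, 4.37, 3.31, 3.76 and 2.87 in number 2 and at most 0.157 in number 3, at least 48.2-fold lower. MXRA5, a secreted matrix protein, was at least 24.4-fold lower, TMEM47, a membrane protein of cell junctions, at least 22.5-fold and the noncoding FAM230C at least 16.5-fold. ARHGEF33 had 13.3, 3.05, 13.9 and 4.31 CPM in number 1, at most 0.259 in number 2 and at most 0.232 in number 3, a log2 difference of −6.23 (SE 0.59, adjusted p = 6.56e-05).

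CMBL, a carboxymethylenebutenolidase homolog, was lost in number 3 alone. CMBL had 28.3, 22.8, 21.3 and 20.4 CPM in number 1, 25.1, 27.0, 24.4 and 28.7 in number 2 and 0.249, 0.405, 0.262 and 0.360 in number 3. The log2 difference was −6.14 (SE 0.18, adjusted p = 6.61e-08 by edgeR) against number 1 and −6.32 against number 2, with no overlap. GGT1, a gamma-glutamyltransferase of glutathione turnover, was likewise lowest in number 3, with 19.6, 12.9, 25 and 17.1 CPM in number 1 and 4.05, 2.03, 4.25 and 3.29 in number 3 (−2.46, SE 0.11). GPR50, an orphan relative of melatonin receptors, was highest in number 1 at 8.73 to 15.7 CPM, with 1.19 to 1.90 in number 2 and 0.734 to 0.946 in number 3 (−3.78, SE 0.18). The pattern of RTN1, a reticulon of neuronal endoplasmic reticulum, set number 2 apart: 46.0, 11.8, 50.9 and 13.2 CPM in number 1, 3.97, 0.983, 4.64 and 1.95 in number 2 and 67.4, 16.8, 64.6 and 20.3 in number 3. RTN1 was lower with doxycycline in every number. LRRN2, a leucine-rich repeat neuronal protein, ran from 4.24 to 7.75 CPM in number 2, 11.4 to 23.9 in number 1 and 36.6 to 67.1 in number 3.

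In the other direction, SST, an inhibitory peptide hormone and neuromodulator, led among genes with reads in both numbers. SST had 1.54, 0.667, 0.297 and 0.103 CPM in C1, D1, I1 and DI1, 6.85, 11, 3.49 and 5.84 in number 2, and 67.1, 52.8, 27.2 and 22.5 in number 3. The log2 difference of 3 minus 1 was 6.10 (SE 0.35, adjusted p = 4.66e-06 by edgeR), a fold of 68.5, and the 3 numbers did not overlap within a treatment. PHF2P2, a pseudogene whose reads may be shared with PHF2, had 0 in number 1 and 2.56, 4.23, 2.36 and 3.42 CPM in number 3, at least 20.0-fold higher. VSTM2B was at least 17.1-fold higher, with at most 0.154 CPM in number 1, at most 0.0545 in number 2 and 1.74 to 3.94 in number 3. NTRK2, the receptor for brain-derived neurotrophic factor, had 1.04, 1.34, 0.297 and 1.23 CPM in number 1, 2.02 to 4.41 in number 2 and 10.5, 18.3, 8.75 and 13.3 in number 3 (3.75, SE 0.26). GPR12, a G protein-coupled receptor of neurons, rose from 1.24 to 5.72 CPM in number 1 to 19.4 to 47.9 in number 3 (3.46, SE 0.43). NPFFR2, a receptor for neuropeptide FF, had at most 0.594 CPM in number 1 and 5.04 to 6.79 in number 3. GALC, the lysosomal galactosylceramidase, had 0.572 to 1.66 CPM in number 1, 0.155 to 0.447 in number 2 and 9.56 to 12.6 in number 3 (3.33, SE 0.25). The tetraspanin CD82 (3.74, SE 0.51) and the exchange factor NGEF (3.70, SE 0.52) were at the floor in number 2 and in number 3 were highest in C3 and I3, the libraries without doxycycline. MATN3, a matrix protein of cartilage (3.78, SE 0.50), MAMLD1 (3.32, SE 0.56) and the antisense RNA LHFPL3-AS2 (4.21, SE 0.82) completed the 12 genes higher in number 3, all below 5 CPM. Each of the 24 was still called in all 12 fits that dropped a single library. They were picked as the largest calls in the same libraries, so this is a description.

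**Figure D1:**
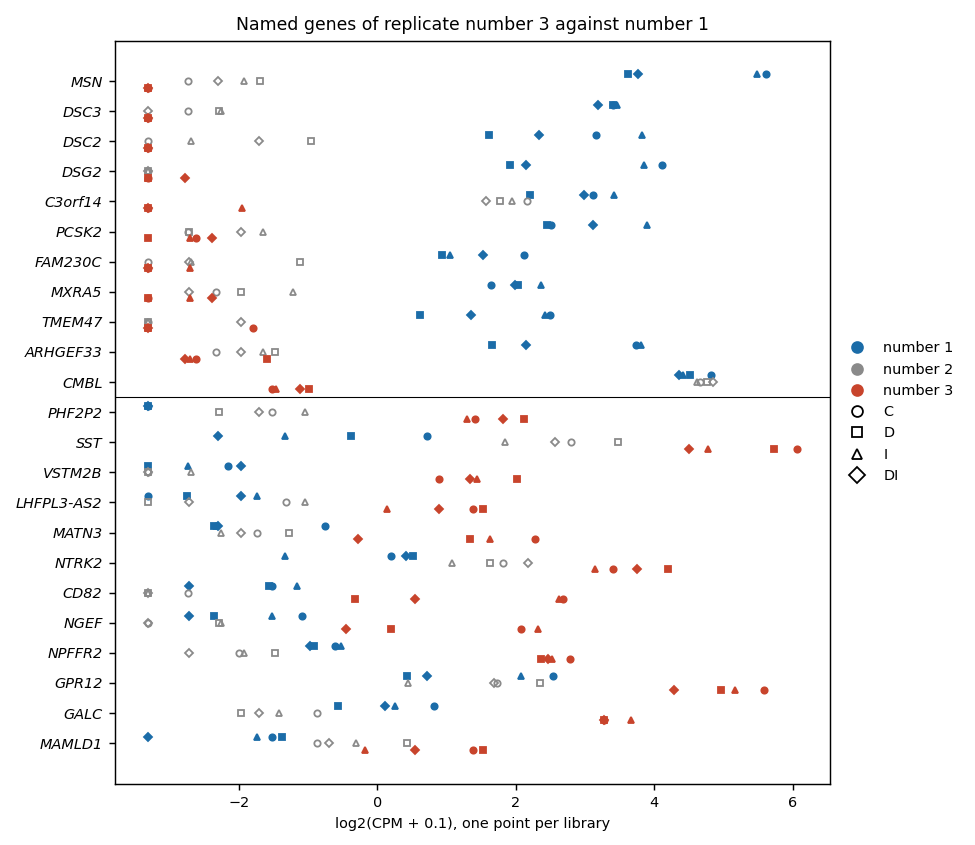
Level of 23 of the 24 genes with the largest differences between numbers 3 and 1, as log2 of CPM plus 0.1, with 1 point per library colored by replicate number (blue 1, gray 2, red 3) and shaped by treatment. Lower genes stand above the line and higher genes below it. The 4 points of number 3 lie apart from the 4 of number 1 in each row, and number 2 sides with number 3 for DSC3, MSN and PCSK2 and with number 1 for CMBL.

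Genes at 1 CPM or more in all 4 libraries of a number and at the floor of 3 counts or fewer in all 4 of another were counted. There were 13 genes on in number 1 and at the floor in number 3: C3orf14, CHRDL1, CLEC18C, DSC2, DSC3, DSG2, FAM230C, MSN, MXRA5, PCSK2, SGCA, SLC18B1 and TMEM47. In the reverse direction there were 2, PHF2P2 and VSTM2B. Between numbers 3 and 2, 19 genes were on in number 3 only, SPP1 and ENPP1 among them, and 8 in number 2 only, including the cardiac actin ACTC1 and HIF3A. Between 1 and 2 the counts were 9 and 0.

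Among matrix and mesenchymal genes, more passed as lower than as higher in number 3. Of 32 tested, 14 were lower, 3 were higher and 15 were not called, with a median log2 difference of −0.44, beside a median of −0.00 over all genes, of which 13.2% were called lower and 11.2% higher. VIM, the intermediate filament vimentin, had 99.1, 98.8, 103 and 110 CPM in C1, D1, I1 and DI1, 151, 148, 209 and 201 in number 2 and 45.2, 38.5, 47.2 and 39.9 in number 3 (−1.27, adjusted p = 1.71e-05 by edgeR). The 3 numbers did not overlap for VIM, and number 2 was the highest. The basement membrane collagens COL4A1 (−0.85) and COL4A2 (−0.79), the microfibril protein FBN1 (−0.91), the collagen receptor ITGA1 (−1.31), COL11A1 (−0.88) and the zinc finger factors SNAI2 (−0.99) and ZEB2 (−0.72) fell as well. COL1A1 (−3.27), LUM (−2.11) and THBS1 (−1.46) had the largest differences, at levels of 5.02 CPM or less, and THBS1 lost its call without C1, C3, D3 or I1. Without C1, C3 or I1 the lower genes numbered 11. The members that rose were FN1 (fibronectin, 0.66), COL3A1 (0.69) and LAMC1 (0.29). FN1 itself was 487, 876, 3330 and 2177 CPM in number 3 against 379, 595, 1786 and 1240 in number 1. The fibroblast markers, several of which are also in this list, had 1 higher and 3 lower of 8 tested, with PDGFRA at 15.8 to 22.2 CPM in number 1, 33.0 to 43.4 in number 2 and 8.91 to 9.79 in number 3.

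Of 23 genes of catecholamine synthesis and secretory granules, 5 were higher and 2 lower, with a median of 0.14. The called share of 30.4% was near the 24.3% of all tested genes, so the values below describe single genes. NPY, neuropeptide Y, had 65.2, 30.6, 90.7 and 54.8 CPM in number 1, 90.9, 82.5, 104 and 93.2 in number 2 and 223, 184, 416 and 273 in number 3 (2.20, SE 0.17, adjusted p = 1.77e-05). SCG2 (secretogranin II) rose by 1.20, CHGA (chromogranin A) by 0.55 and PTPRN, a granule membrane protein, by 0.64. The prohormone convertases went in opposite directions. PCSK2 was lost, as described above, and PCSK1 had 0.738, 0, 0.445 and 0.103 CPM in number 1, 0 in number 2 and 5.11, 0.985, 4.40 and 0.811 in number 3 (3.27, SE 0.50). SLC6A2, the noradrenaline transporter, was lower by −0.91, with 57.5 to 80.7 CPM in number 1 and 34.6 to 39.1 in number 3.

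Neuronal cytoskeleton and synapse genes were called 8 higher and 6 lower of 32, with a median of 0.16. The called share was 43.8%, beside 24.3% of all tested genes. The counts were 5 and 3 without D1 and 5 and 5 without C3. Of the called genes, 3 lie in the shifted chromosome stretches described below, and 7 higher and 4 lower ones lie elsewhere. The neurofilament subunits moved apart. NEFH, the heavy subunit, had 33.8, 80.1, 39.3 and 73.5 CPM in number 1, 36.1, 70.5, 41.0 and 62.1 in number 2 and 9.91, 12.1, 10.1 and 12.6 in number 3 (−2.27, SE 0.14, adjusted p = 7.63e-06). NEFL, the light subunit, had 44.2 to 60.2 CPM in number 1 and 101 to 151 in number 3 (1.29, SE 0.18). CNTN2, an axonal adhesion molecule, rose by 1.62 and the tubulin-binding STMN4 by 0.83, while MAP1B (−0.38), MAP2 (−0.30), GAP43 (−0.38), peripherin PRPH (−0.55) and the RNA-binding ELAVL4 (−0.42) fell. Of 19 adrenergic transcription factors 5 were higher and 3 lower (median 0.08), a called share of 42.1%. Leaving out D1, I1, DI1 or DI3 left 3 higher. HAND2 stood at 586, 335, 482 and 309 CPM in number 1 and 950, 570, 868 and 607 in number 3 (0.82, SE 0.092), GATA2 rose by 0.63 and SIX3 by 0.70. EYA1, a transcriptional coactivator, fell by 1.52, DACH1 by 0.37 and MYCN, the amplified oncogene, by 0.22 (adjusted p = 0.0296), from 1030 to 1496 CPM in number 1 to 886 to 1253 in number 3. MYCN overlapped between the numbers and lost its call without any of 6 single libraries (D1, D3, I1, I3, DI1 or DI3).

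**Figure D2:**
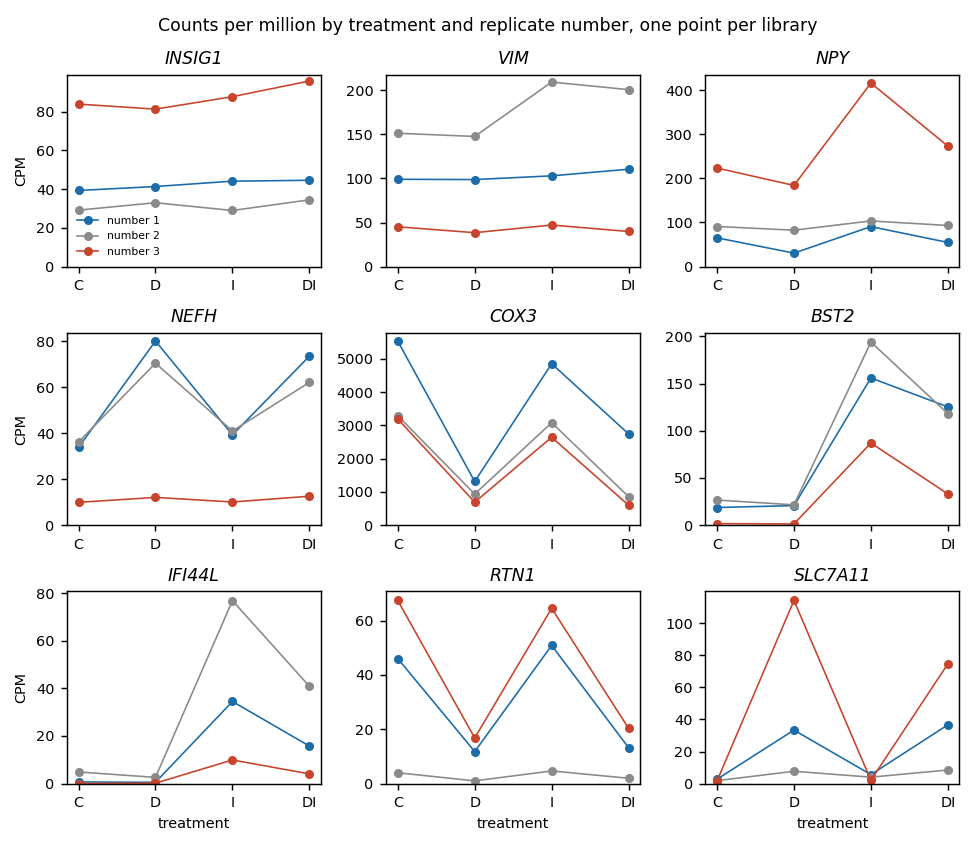
CPM of 9 genes in each treatment (C control, D doxycycline, I IFNγ, DI both), with 1 point per library and 1 line per replicate number. INSIG1 and NPY were highest and VIM and NEFH lowest in number 3 under every treatment, RTN1 was lowest in number 2, and SLC7A11 differed mainly with doxycycline.

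Of the mitochondrially encoded mRNAs, which specify 13 subunits of the respiratory chain, 11 were called lower in number 3 and 0 higher (13.2% and 11.2% of all tested genes), with a median of −0.84. COX3, a subunit of cytochrome c oxidase, had 5528, 1311, 4851 and 2739 CPM in C1, D1, I1 and DI1, 3289, 933, 3078 and 852 in number 2 and 3190, 689, 2640 and 596 in number 3 (−1.22, SE 0.21, adjusted p = 0.00198). CYTB (−1.07) and ATP6 (−1.04) came next. The median difference was largest with both agents, at −1.72 in DI, against −0.60, −0.43 and −0.56 under C, D and I. In DI1 these mRNAs held 2.58% of counts against 1.12% in DI2 and 0.768% in DI3. Their part in the difference was not tested. Without DI1 the median was −0.56, and 10 to 12 were called lower whichever library was left out. The nuclear-encoded respiratory chain subunits went 12 higher and 3 lower of 47 (median 0.13), a called share of 31.9% beside 24.3% of all tested genes. The higher ones numbered 5 without D1 or D3 and 7 without I1 or I3. Of the called genes, 4 lie in the shifted chromosome stretches described below, and 9 higher and 2 lower ones lie elsewhere. ATP5ME (0.72, no call without any of C1, C3, D1, D3, I1 or DI1) and NDUFA6 (0.63) had the largest increases and SDHA (−0.51) the largest decrease.

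Of 24 tested genes of cholesterol synthesis and uptake, 12 were higher in number 3 than in number 1, 0 were lower and 12 were not called, with a median of 0.34, beside 11.2% higher over all tested genes. Between numbers 2 and 1, 0 were higher and 17 lower (median −0.42), and between 3 and 2, 21 were higher and 0 lower (median 0.81). INSIG1, the sterol-regulated anchor of the SREBP escort protein, had 39.3, 41.3, 44.1 and 44.5 CPM in number 1, 29.1, 33.0, 29 and 34.5 in number 2 and 83.8, 81.2, 87.7 and 95.8 in number 3 (1.04, SE 0.067, adjusted p = 7.63e-06). The 3 numbers did not overlap for INSIG1. MSMO1, a sterol oxidase of the pathway, rose by 0.63 and SQLE, the squalene epoxidase, by 0.38. SREBF2, the transcription factor that drives this program, had 618 to 700 CPM in number 1 and 1076 to 1344 in number 3 (0.89). It lies on a part of chromosome 22 where most genes were higher in number 3, described below, and 11 of the 12 called genes lie outside such stretches. Leaving out single libraries gave 9 to 15 higher and 0 lower.

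Of 69 tested interferon response genes 3 were higher and 15 lower, with a median of −0.15. The called share of 26.1% was close to the 24.3% of all tested genes. Many of these genes had few reads without IFNγ, and their differences rest on I and DI. BST2 (tetherin, which holds budding virus at the cell surface) had 156 and 125 CPM in I1 and DI1, 194 and 118 in I2 and DI2, and 86.9 and 33.0 in I3 and DI3. It was also lower without IFNγ, at 18.6 and 20.6 CPM in C1 and D1 and 1.56 and 1.22 in C3 and D3 (−2.01, SE 0.41, adjusted p = 0.00519 by edgeR). IFI44L had 34.5 and 15.8 CPM in I1 and DI1, 76.9 and 40.9 in number 2 and 9.90 and 4.05 in number 3 (−1.83, SE 0.33). SP100, a nuclear body protein, was lower by −2.86 at levels of 5.51 CPM or less. APOL1 (−0.98), IRF8 (−1.02), TRIM22 (−1.03), SOCS3 (−1.22) and IDO1 (−1.32) were among the others. The difference of IDO1 depended on doxycycline (interaction −1.64, adjusted p = 0.013 by edgeR), at −0.51 under I and −2.14 under DI. The higher genes included the immunoproteasome subunits PSMB8 (0.62) and PSMB9 (0.51). The number of lower genes was 8 without DI1 and 9 without I1 or I3, and that of higher genes 1 without I1, I3, DI1 or DI3 and 6 without D2. The median rise with IFNγ over the list, on log2 CPM with a prior count of 2, was 5.45, 5.51 and 5.57 in numbers 1, 2 and 3. IRF1, the factor that carries much of the IFNγ response, had 380 and 376 CPM in I1 and DI1 and 442 and 383 in I3 and DI3 (0.14, adjusted p = 0.373 by edgeR).

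Of 23 tested replication-dependent histone mRNAs, which normally lack poly(A) tails, 8 were lower in number 3, 0 were higher and 15 were not called, with a median of −0.74, beside 13.2% lower over all tested genes. The lower ones numbered 6 without C1, I1, DI1 or DI3. H2AC6 had 19.4, 5.15, 29.9 and 9.50 CPM in number 1 and 8.79, 2.72, 18 and 4.41 in number 3 (−0.95), and H2BC18 fell by 2.25. The summed level of the list was 59.0 to 193 CPM in number 1, 131 to 237 in number 2 and 44.2 to 139 in number 3. H3C12 lost its call in most fits with a library left out. DNA replication genes had 8 higher and 1 lower of 27 (median 0.10), led by the helicase subunit MCM2 (0.50), GINS1 (0.44) and the sliding clamp PCNA (0.42). Mitosis genes had 4 and 3 of 25 (median 0.03), with 1 or 2 higher without C3, I1, I3, DI1 or DI3. The called shares of these 2 lists were 33.3% and 28%, beside 24.3% of all tested genes.

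Stress and signaling lists were mixed. Over all tested genes 24.3% were called, 11.2% higher and 13.2% lower. The called share was 35% for heat shock chaperones, 43.5% for immediate early genes and 33.3% for SWI/SNF subunits. It was 12.8% for cytosolic ribosomal proteins and 6.45% for proteasome subunits, below that of all genes. For 13 of the 31 proteasome subunits the 2 minus 1 difference was lower with doxycycline and for 0 higher (13.4% of all genes passed either way). The spread in this fit includes number 2, so few calls do not show that numbers 3 and 1 were level. Heat shock chaperones had 6 higher and 1 lower of 20 (median 0.13), with DNAJA4 at 1.44, BAG3 at 0.75 and HSPE1 at 0.63. Immediate early genes had 7 higher and 3 lower of 23 (median 0.21), with 2 higher without D1 or D3, 3 without DI1 and 4 without I1 or I3. FOS, a subunit of AP-1, had 5.29, 2.00, 5.0 and 2.93 CPM in number 1 and 0.249, 0.637, 0.314 and 0.495 in number 3 (−3.29, SE 0.68), and EGR1 fell by 2.09. The MAP kinase phosphatases DUSP4 (1.70) and DUSP6 (1.69) and the nuclear receptor NR4A1 (0.81) rose, though DUSP4 lost its call without D1, D3, I1 or DI3. SWI/SNF subunits, the complex to which ARID1A belongs, had 2 higher and 6 lower of 24 (median −0.07). ARID2 (−0.60), BRD9 (−0.52), SS18 (−0.47), SMARCE1 (−0.44), SMARCD1 (−0.40) and SMARCB1 (−0.34) fell and BCL7C (0.68) and ACTL6A (0.30) rose, and 4 of these 8 lie in the shifted chromosome stretches described next. Cytosolic ribosomal proteins had 7 higher and 3 lower of 78 (median 0.04), with 1 higher without D1, D3, I3 or DI3, 3 without DI1 and 4 without C3, I1 or I2, proteasome subunits 1 and 1 of 31, and metallothioneins and zinc transporters 0 and 0 of 5.

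**Figure D3:**
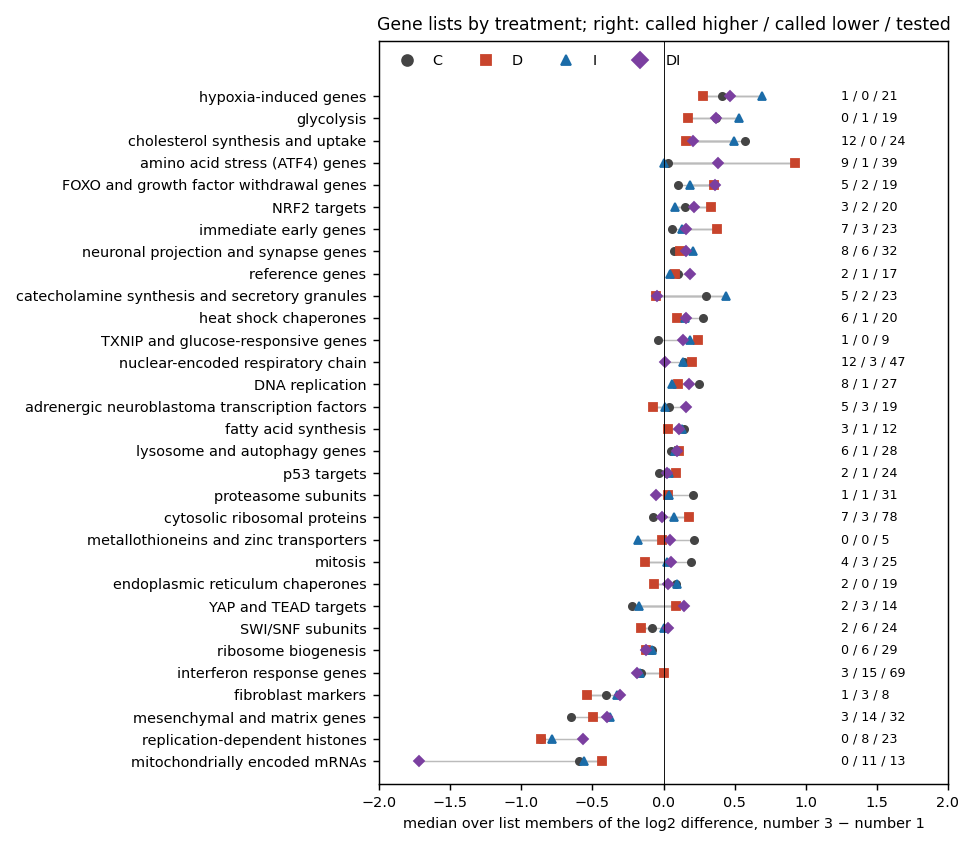
Median log2 difference of number 3 minus number 1 over each gene list, with 1 symbol per treatment (C circle, D square, I triangle, DI diamond). The numbers at the right give members called higher, called lower and tested. Mitochondrially encoded mRNAs, histones and matrix genes lay below 0 and cholesterol genes above 0 in all 4 treatments.

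Differences between the numbers also followed position along the chromosomes. Protein-coding genes with a mean of at least 10 CPM were placed in consecutive 10 Mb windows, of which 278 held at least 10 genes. A window was counted as shifted when its median difference was at least 0.2 in the same direction in each of the 4 treatments. Between numbers 3 and 1, 13 windows were shifted up and 16 down, on chromosomes 1, 3, 5, 10, 12, 18 and 22. The same rule gave 0 up and 6 down between 2 and 1, and 32 up and 20 down between 3 and 2. The 29 windows hold 1455 of the tested genes (9.19%), and 691 of these were called, or 47.5%, against 22% elsewhere. They hold 17.9% of all called genes. The windows were defined from the same differences, so these shares are a description. DNA was not measured, and copy number and regulation cannot be told apart from these counts.

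On chromosome 5 the median over 466 genes was −0.25, with 211 genes called lower and 11 higher. CMBL, SDHA, BRD9 and RPS23 are among them. The end of chromosome 1 from 0 to 20 Mb was lower in number 3 (medians −0.31 and −0.38), and so it was in number 2 (−0.36 and −0.38). Further along the same chromosome, the windows from 200 to 210 and 210 to 220 Mb were higher, at 0.57 and 0.42, and number 2 stood at −0.10 and −0.08 there. LRRN2 and CNTN2 lie in the window from 200 to 210 Mb. Chromosome 10 from 120 to 140 Mb was higher (0.34 and 0.41), and chromosome 12 from 30 to 50 Mb lower (−0.36 and −0.34). On 3 chromosomes the median changed between neighboring genes, at places chosen after the values were seen. On chromosome 22 the 164 genes up to L3MBTL2 (ending at 41231271) had a median of −0.28 with 84 called lower, and the 65 from RANGAP1 (starting at 41245611) had 0.49 with 46 called higher. NEFH and GGT1 lie before this change, and SREBF2 and NDUFA6 beyond it. On chromosome 18 the change lay between KIAA1328 and CELF4, from −0.23 to 0.20. On chromosome 3 it lay between ROBO1 and GBE1, from −0.02 to 0.27, with 140 of 283 genes called higher beyond it. SST also lies beyond it. Chromosome 6 had a median of 0.17 in 3 minus 1 and −0.17 in 2 minus 1, and chromosome 20 had 0.13 and −0.20.

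**Figure D4:**
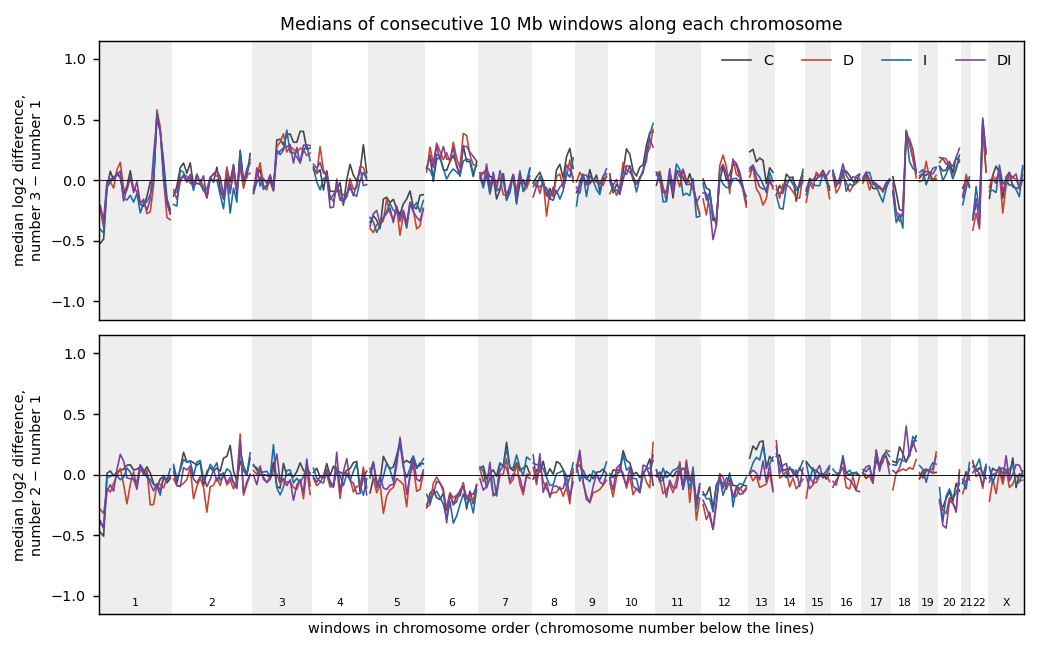
Median log2 difference in consecutive 10 Mb windows in chromosome order, with 1 color per treatment, for number 3 minus 1 (upper panel) and number 2 minus 1 (lower panel). The 4 treatments run together: chromosome 5 lies below 0, the middle of chromosome 3 onward lies above 0, and chromosome 22 crosses from about −0.28 to 0.49 in the upper panel.

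Most differences between numbers 3 and 1 did not pass a test of dependence on treatment. For IFNγ, 0 genes passed the number by IFNγ test by edgeR (0%), with 245 at an unadjusted p under 0.05, and DESeq2 called 6. On simulated counts with these dispersions the IFNγ test found 14 of 100 planted log2 differences of 1 and 70 of 100 of 2, so smaller differences would often be missed. For doxycycline 114 genes passed (0.720%), of which 47 had a higher 3 minus 1 difference with doxycycline (0.297%) and 67 a lower one, and 50 had opposite signs without and with it. The count was 15 without I1, 20 without I3, 24 without D3, 34 without D1, 44 without C3, 74 without C1, 178 without DI2 and 179 without D2. RGS5, a regulator of G protein signaling, had the smallest p. It had 45.7, 8.82, 23.2 and 7.34 CPM in C1, D1, I1 and DI1 and 94.2, 4.34, 69.1 and 3.24 in number 3, so that number 3 was higher without doxycycline and lower with it (interaction −2.39, SE 0.22, adjusted p = 0.00013 by edgeR). NPW, the precursor of neuropeptide W, had 43.6, 61.6, 23.4 and 41.0 CPM in number 1 and 59.5, 24.0, 39.5 and 17.3 in number 3 (interaction −1.89). LBH, a transcriptional cofactor, was higher in number 3 throughout and more so with doxycycline, at 41.1, 20.1, 40.5 and 22 CPM in number 1 and 67.6, 86.7, 76.6 and 82.3 in number 3 (interaction 1.18).

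Amino acid stress genes, targets of ATF4 that supply amino acids and glutathione, made up 10 of the 114. SLC7A11, the cystine importer, had 2.70 and 5.59 CPM in C1 and I1, 33.4 and 36.6 in D1 and DI1, 1.62 and 2.04 in C3 and I3, and 114 and 74.7 in D3 and DI3 (interaction 2.59, adjusted p = 0.00194). CHAC1, which degrades glutathione (1.93), SESN2, a leucine sensor (1.29), SLC3A2 (0.77), PSAT1 (0.75) and ATF4 itself (0.66) passed in the same direction. The median doxycycline difference of the list was 0.60 in number 1, 0.38 in number 2 and 1.12 in number 3, on log2 CPM with a prior count of 2. In the comparison over all treatments 9 of 39 were higher and 1 lower (median 0.31), a called share of 25.6% beside 24.3% of all tested genes. The median was 0.13 without D3, 0.47 without DI1, 0.50 without C3 and 0.52 without I3, and 6 to 12 were higher when single libraries were left out. Among them were TRIB3, a pseudokinase (1.22), ATF3 (1.16) and STC2 (1.70), the last without a call when any of C3, D1, D3, I1, I3 or DI1 was left out. Other genes with a doxycycline-dependent difference were DDC, the enzyme that makes dopamine (−0.82), and the vesicular transporter SLC18A2 (−1.77).

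The largest dependence on doxycycline set number 2 apart from both 1 and 3. In a comparison added after the values were seen, 2114 genes differed with doxycycline between 2 and 1 (13.4%), 1221 of them with a higher 2 minus 1 difference (7.71%), and 2375 between 3 and 2 (15%). Hypoxia-induced genes, the targets of HIF that supply glycolytic enzymes, pH regulation and blood vessel growth, fell with doxycycline in numbers 1 and 3 and not in 2. Their median doxycycline difference was −1.66 in number 1, 0.75 in number 2 and −1.69 in number 3, against medians of −0.01, −0.01 and −0.00 over all genes. All 21 passed with a higher 2 minus 1 difference, and 0 passed between 3 and 1. CA9, a carbonic anhydrase that is a standard marker of hypoxia, had 22.2, 0.0953, 14.9 and 0.0513 CPM in C1, D1, I1 and DI1, 15.6, 15.4, 31.7 and 29.6 in number 2 and 28.7, 0.116, 36.4 and 0.180 in number 3. PFKFB4 (4.36), the Notch ligand relative DLK1 (4.29) and the cyclin-dependent kinase inhibitor CDKN1C (5.89) had the smallest p for this difference. For glycolysis genes the medians were −1.12, 0.08 and −1.21, and 16 of 19 passed between 2 and 1. Between 3 and 1 only PFKP passed (−0.78). Of 39 amino acid stress genes, 26 had a higher 3 minus 2 difference with doxycycline and 2 a lower one. Their 2 minus 1 difference was higher with doxycycline for 2 and lower for 10. Doxycycline and the hairpin cannot be told apart in this design, since no library had doxycycline without the hairpin, and what set the libraries numbered 2 apart was not tested.

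**Figure D5:**
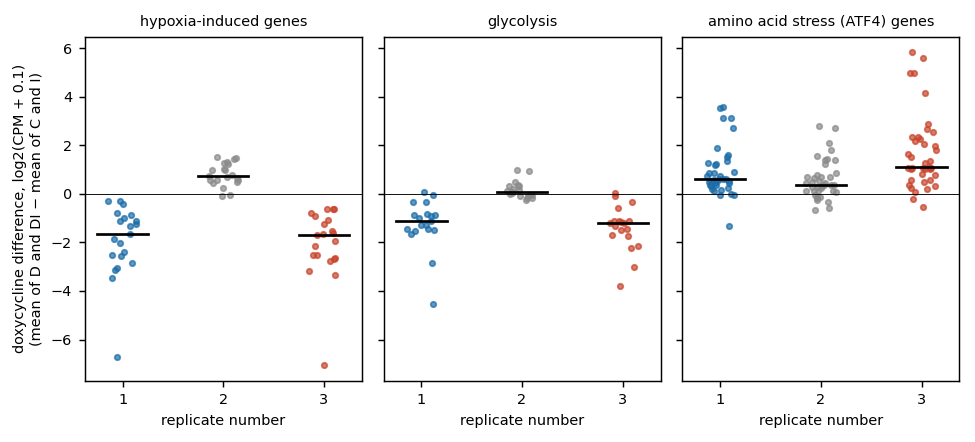
Doxycycline difference on log2(CPM + 0.1), as the mean of D and DI minus the mean of C and I, for each gene of 3 lists by replicate number, with 1 point per gene and a bar at the median. On log2 CPM with a prior count of 2, close to the scale drawn, hypoxia-induced genes lay at medians of −1.66, 0.75 and −1.69 in numbers 1, 2 and 3. Amino acid stress genes lay at 0.60, 0.38 and 1.12 on that scale.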

How the data were processed

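RNA of 12 libraries (4 treatments, 3 numbered replicates each) was sequenced by the authors with paired reads. The authors deposited raw counts per gene for 43769 genes, with no normalization, and the aligner, the counting tool, the genome build and any use of strand are not given in the sources used here. The submitters' processing notes name DESeq2. Positions came from GENCODE release 29 (GRCh38), in which all identifiers occur, and upstream sequences from RefSeq. The authors' tables of fold changes and p-values were not used, nor were 18 per-library columns whose names the labels do not explain.

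Counts were scaled by TMM, filtered with filterByExpr (minimum count 10), which left 15828 genes, and fitted with edgeR 4.0.16 (limma 3.58.1, R 4.3.3) in a quasi-likelihood model of replicate number plus treatment. Tests were two-sided with Benjamini-Hochberg adjustment over all tested genes, and an adjusted p under 0.05 was a call. Models with number by doxycycline or number by IFNγ gave the interactions. Same-numbered libraries deviated together from their treatment means, with correlations of 0.338 to 0.804 in 18 pairs. In 36 pairs of other numbers they were −0.628 to 0.143, low in part because deviations cancel within a treatment. Of 12 libraries, 12 correlated best with one of their own number, so the numbers pair the libraries. DESeq2 1.42.0, other scalings, filters, thresholds and library subsets, and leaving out each library were alternatives. On simulated counts the 3 vs 1 test found 27 of 100 planted log2 differences of 0.5 and 74 of 100 of 1, with 9 false calls, and the doxycycline test 66 of 100 of 1 and 87 of 100 of 2, with 18 false calls.

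The replicate numbers compared, the gene lists and the tests were chosen with earlier results of these data known. Named genes were the 12 largest differences per direction among called genes of the same sign in all treatments with a mean of at least 1 CPM, the 3 largest called members of each list (where none was called, the 2 with the highest mean CPM), ARID1A, MYCN, IRF1, PPIB and HPRT1, and the 3 genes with the smallest p and a mean of at least 1 CPM in each other comparison. Other genes in the text were chosen after their values were seen. Some genes that the rule selects are not reported here. A fold against a number at the floor uses 3 counts per library. Counts carry no molecular identifiers, so the floor covers counting error only.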

Additional observations from a re-analysis of the deposited data

Results flagged for a closer look

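Results whose size differed between groups under a tested interaction are listed here. The 3 minus 1 difference depended on doxycycline for 114 genes, the 2 minus 1 difference for 2114 and the 3 minus 2 difference for 2375 (edgeR's quasi-likelihood test, adjusted p under 0.05). Each of these comparisons shares libraries with the others.

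Among the named genes the interaction of 3 minus 1 with doxycycline, on the log2 scale, was −2.39 for RGS5, −1.89 for NPW, 1.18 for LBH, 0.79 for HERPUD1, 0.59 for RPL22, −0.76 for NEFH and 1.75 for PDK4. HERPUD1, which helps to clear misfolded proteins from the endoplasmic reticulum, had 68.4 and 72.6 CPM in D1 and DI1 against 164 and 112 in D3 and DI3, and 41.8 to 48.9 CPM without doxycycline in either number. Its call over all treatments was lost without D1, D3, I1, DI1 or DI3. RPL22, a ribosomal protein on the shifted end of chromosome 1, had 185 and 157 CPM in C1 and I1 against 94.0 and 79.2 in C3 and I3, and 121 and 142 in D1 and DI1 against 108 and 92.7 in D3 and DI3. PDK4, a kinase that restrains pyruvate oxidation, had 3.69 and 3.81 CPM in C1 and I1, 0.810 and 1.74 in D1 and DI1, and 7.13 to 9.55 in number 3.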

How the results depend on the processing

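Over all alternatives, the values of named genes kept their direction and side of the threshold 1681 times, lost the call 109 times, gained it 9 times and changed sign 1 time. List medians stayed within their spread 572 times and moved beyond it 54 times. RGS5, not called over all treatments, had a log2 fold change 3 vs 1 of −0.0918 without I3, and ran from −0.09 to 1.02 (without DI3). The calls depended on the threshold: at an adjusted p of 0.01, 2078 genes were left for replicate number 3 vs 1, 1032 for replicate number 2 vs 1, 4054 for replicate number 3 vs 2, 4182 for any replicate number and 19 for 3 vs 1 by doxycycline, and with at least 2-fold 953, 593, 1571 and 55 (the test of any difference aside). Leaving the treatments out of the model gave 1631, 912 and 3866, and the 8 libraries of numbers 2 and 1 alone gave 1685. For 3 vs 1, leaving out the treatment D gave 2487 and I 2317. The libraries without IFNγ alone gave 507 and those with it 479. Each of these fits had fewer samples. A model with number by doxycycline, averaged, gave 6080 for 3 vs 1. The 24.3% of tested genes set beside the lists therefore holds for the main model only. Without a filter 424 genes were called in 3 vs 1 by doxycycline and 1 in 3 vs 1 by IFN, for which DESeq2 called 6. With the replicate block beside the treatments the coefficient of variation was 0.153.

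Leaving out single libraries gave 2711 (without C3) to 4221 genes for 3 vs 1, 1380 (without DI1; 1510 without I1, 1716 without D1, 1775 without DI2, 1787 without D2) to 4167 for 2 vs 1, 5103 to 6497 for 3 vs 2, 5762 to 7600 for any, 15 (without I1) to 179 (without D2) for 3 vs 1 by doxycycline, 809 (without C1; 988 without C2, 1185 without DI2, 1244 without DI1, 1377 without D1) to 2093 for 2 vs 1 by doxycycline and 1253 (without I3; 1316 without C2, 1516 without DI3, 1541 without DI2) to 2374 for 3 vs 2 by doxycycline, and a coefficient of variation of 0.291 to 0.328. The 2 vs 1 and 3 vs 2 tests by doxycycline and the fits of the lists without single libraries were added after seeing the data. DESeq2 gave 4078, 3628 and 6373 genes for replicate number 3 vs 1, replicate number 2 vs 1 and replicate number 3 vs 2, and 136 for 3 vs 1 by doxycycline. The cause of these changes was not tested. On simulated counts, planted 3 vs 1 differences of a log2 of 0.5 were often missed, and smaller ones were not planted. The simulation changed far fewer genes than were called between numbers 3 and 1, so its share found need not hold here.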

Other observations

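Outside the lists led with above, p53 targets had 2 higher and 1 lower of 24 (median 0.05), with SPATA18, which acts in mitochondrial quality control, at 14.4 to 24.3 CPM in number 1 and 4.59 to 6.60 in number 3 (−1.74). NRF2 targets had 3 and 2 of 20 (median 0.24), with the glutathione enzyme GCLC at 0.44 and PGD, on the shifted end of chromosome 1, at −0.66. FOXO and growth factor withdrawal genes had 5 and 2 of 19 (median 0.28) and lysosome and autophagy genes 6 and 1 of 28 (median 0.05), with TFEB, a factor that drives lysosome genes, at 2.32. YAP and TEAD targets had 2 and 3 of 14 (median −0.02), fatty acid synthesis 3 and 1 of 12 (median 0.07), endoplasmic reticulum chaperones 2 and 0 of 19 (median 0.02), ribosome biogenesis 0 and 6 of 29 (median −0.10), TXNIP and glucose-responsive genes 1 and 0 of 9 (median 0.13), and reference genes 2 and 1 of 17 (median 0.15). Over all tested genes 24.3% were called, 11.2% higher and 13.2% lower. Small counts moved when single libraries were left out. Higher lysosome genes numbered 2 without C3 or D1 and 3 without DI1, and TFEB lost its call without C3 or D1. Higher FOXO genes numbered 3 without D1, D3, I1, DI1 or DI3, and higher NRF2 targets 1 without D3, I1 or DI3. Higher p53 targets numbered 0 without D1, D3, I1 or DI1 and 4 without C2, and higher endoplasmic reticulum chaperones 0 without D1, D3, I1 or DI1 and 4 without DI2. Lower ribosome biogenesis genes numbered 2 without I3 and 3 without C3, and higher reference genes 5 without C2 or DI2 and 1 without C1, C3, I1 or I2. Of the genes used to scale assays, PPIA differed by 0.22, YWHAZ by 0.20 (a call lost in most fits without a single library) and SDHA by −0.51, and PPIB (0.25, adjusted p = 0.056 by edgeR) and HPRT1 (0.20, 0.0538) did not pass. Glycolysis genes over all treatments had 0 and 1 of 19 called (median 0.42) and hypoxia-induced genes 1 and 0 of 21 (median 0.55). The spread in this fit includes number 2, whose doxycycline differences stood apart for these genes, so few calls do not show that numbers 3 and 1 were level. The median 3 minus 1 difference under C, D, I and DI was 0.37, 0.17, 0.53 and 0.37 for glycolysis genes. For hypoxia-induced genes it was 0.41, 0.28, 0.69 and 0.47. Without DI2 5 glycolysis genes were higher, and without C2 3.

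Of the markers of other cell types, KRT8 was at most 1.44 CPM in number 1 and at most 0.0623 in number 3, at least 6.09-fold lower, and VWF differed by −2.20 at levels of 2.89 CPM or less. CD14 was not called (0.87, adjusted p = 0.195).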
